A study of Mus musculus with 6 samples.

Results

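The 10 genes described here encode the proteins that coat, fuse and form the lipid droplets of fat cells: Cidea, Cideb and Cidec of the CIDE family, the perilipins Plin1, Plin2, Plin3, Plin4 and Plin5, and the formation factors Fitm2 and Bscl2. The rule takes them by gene name and uses no measured value, and all 10 were found among the 22942 genes of the series, 1 RefSeq transcript standing for each gene. RNA sequencing was done on C3H-10T1/2 preadipocytes, mesenchymal cells of mouse origin that can become fat cells. In 3 cultures these cells received 4 uM of 611 (Cpd A), which inhibits LSD1, an enzyme that removes methyl groups from histones, and 3 control cultures received DMSO, its solvent. Both groups went through 6 days of brown adipocyte differentiation, which began with 72 h of isobutylmethylxanthine (0.5 mM), indomethacin (125 uM), dexamethasone (1 uM), insulin (20 nM), T3 (1 nM) and rosiglitazone (1 uM) and went on with insulin, T3 and rosiglitazone. Rosiglitazone, a ligand of the nuclear receptor PPARG, was therefore present in both groups from induction on. Serum at 10% is recorded for both groups. The line stands in for brown fat cells, and no genotype, age or animal is given for it. The labels place the start of treatment at seeding in one field and 12 h after it in another, with induction 48 h later.

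A lipid droplet is a core of neutral lipid under a single layer of phospholipid, and it forms between the leaflets of the endoplasmic reticulum. Perilipins sit on the droplet surface and control the access of lipases, CIDE proteins gather where droplets touch and pass lipid from the smaller to the larger one, and seipin (encoded by Bscl2) and FIT2 (encoded by Fitm2) act where droplets bud from the endoplasmic reticulum. White fat cells usually hold 1 large droplet and brown fat cells many small ones, and Cidea, Plin1 and Plin5 are known for their roles in brown fat.

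The comparison asks, after the title of the series, what LSD1 does to transcript levels as brown adipocytes develop. With 611, 7 of the 10 droplet genes were lower, 2 were higher and 1, Plin5, did not pass the test (limma on log2(RPKM + 1), Benjamini-Hochberg adjusted p below 0.05). RPKM is the read number scaled to transcript length and to library size. Among the 13829 genes that passed the filter on low values, 59.4% passed the test, 17.7% lower and 41.6% higher, and the median log2 fold change was 0.10, against a median of -0.52 for the 10 droplet genes, all of which passed the filter. Cidea fell most, 6.55-fold, then Cidec, 1.98-fold, Bscl2, 1.80-fold, and Plin1, 1.58-fold. Plin3 and Cideb were higher, 1.59-fold and 1.63-fold. After median-of-ratios scaling, which brought the median over all genes down by 0.11 (log2), 8 members were lower, Plin5 included, and 2 were higher, where 57.2% of all genes passed, 28.6% lower and 28.5% higher.

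Library totals, recovered from the value of 1 read, lay between 4.08e+07 and 4.12e+07 with 611 and between 3.89e+07 and 3.99e+07 with DMSO, and log values correlated across genes at 0.996 to 0.997 within groups and at 0.972 to 0.979 across groups. Of 8 fat cell markers (Adipoq, Fabp4, Lep, Retn, Cfd, Slc2a4, Lpl and Car3) all but Lep were present, and 7 of the 7 tested were lower. Lep was at 0 with 611 and at most 0.0158 RPKM with DMSO, too low to test. Car3 was low, at 0.888 RPKM on average with 611 and 3.39 RPKM with DMSO. The summed level of the 8 was 12205 to 13537 RPKM with 611 and 23846 to 25351 RPKM with DMSO. Fabp4 made up most of that sum, at 10946 RPKM on average with 611 and 21052 RPKM with DMSO. Among 8 brown fat markers, Ucp1, which encodes the uncoupling protein of brown adipocytes, had a value of 0 in each of the 6 libraries. Dio2 and Prdm16 also stayed below 1 RPKM in every library. Of 6 tested, 5 were lower and 1, Ebf2, was higher, at 0.880 RPKM on average with 611 and 0.564 RPKM with DMSO. The 8 markers summed to 81.5 to 99.4 RPKM with 611 and 190 to 213 RPKM with DMSO. Most of that sum was Elovl3, at 76 RPKM on average with 611 and 151 RPKM with DMSO. In the opposite direction, 8 progenitor and fibroblast markers summed to 1427 to 1575 RPKM with 611 and 668 to 731 RPKM with DMSO. Most of that was Vim, at 1067 RPKM on average with 611 and 547 RPKM with DMSO, and 7 of the 8 markers were higher. Over all genes tested, the shares were 17.7% lower and 41.6% higher. Fewer fat cells and less RNA per fat cell cannot be told apart in bulk samples, and the part of either in the results below was not tested. Skeletal muscle markers summed to at most 0.828 RPKM with 611 and 3.39 RPKM with DMSO, and macrophage markers to at most 0.326 RPKM with 611 and 0.192 RPKM with DMSO. Of 6 hepatocyte markers 5 stayed below 1 RPKM in every library, Alb and Ttr among them, and the sixth, Cyp2e1, which fat cells also express, made up nearly all of a sum of 61.1 to 112 RPKM with 611 and 231 to 328 RPKM with DMSO.

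The start sites of a few members are shown because they stand for each behaviour: Plin1 and Plin2 were lower with 611 and Plin3 was higher. Sequences are the 250 bases before the annotated start in RefSeq's GRCm38.p6 assembly, a later build than the mm9 named for these files, and they run 5′ to 3′ on the minus strand, at chr7:79732777-79733026 for Plin1, chr4:86670060-86670309 for Plin2 and chr17:56290512-56290761 for Plin3. Capitals mark matches to the motifs searched.
Plin1: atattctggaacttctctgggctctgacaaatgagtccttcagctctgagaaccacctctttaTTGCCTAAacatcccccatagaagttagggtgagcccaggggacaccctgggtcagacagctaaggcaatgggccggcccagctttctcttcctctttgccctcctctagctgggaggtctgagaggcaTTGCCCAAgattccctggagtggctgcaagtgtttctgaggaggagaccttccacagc
Plin2: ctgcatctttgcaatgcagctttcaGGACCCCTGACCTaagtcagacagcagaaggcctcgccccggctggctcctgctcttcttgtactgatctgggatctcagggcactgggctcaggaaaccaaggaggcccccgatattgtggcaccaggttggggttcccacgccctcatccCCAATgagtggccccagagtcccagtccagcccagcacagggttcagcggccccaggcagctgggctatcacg
Plin3: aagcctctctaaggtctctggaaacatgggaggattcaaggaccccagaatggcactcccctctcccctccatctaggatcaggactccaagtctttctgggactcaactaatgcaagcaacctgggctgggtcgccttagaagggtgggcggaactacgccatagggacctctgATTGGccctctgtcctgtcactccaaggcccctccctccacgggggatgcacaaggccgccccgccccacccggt
Windows of RefSeq were used for 9 of the 10 genes, all matched by symbol. Cidea was left out of the search, so nothing is said here about motifs near its start. The searched windows run on for a further stretch past the start that is not printed. The motifs were AGGTCA (the core that nuclear receptors bind), the DR1 element with up to 2 mismatches (that core repeated with 1 base between, bound by PPAR with RXR), TCAAGGTCA (the element of oestrogen-related receptors), TTGCNNAA (a form of the C/EBP element), TATAAA and CCAAT, each on both strands. A DR1 match lies in the Plin2 window, overlapping an AGGTCA match on the same strand, and such matches occur in 3.86% and 16.3% of all 32851 windows. In the Plin1 window there are 2 TTGCNNAA matches, a motif held by 10.8% of all windows. CCAAT, in 37.4% of all windows, is found in those of Plin2 and Plin3. Windows of members not printed held matches too: CCAAT in Plin4, Plin5 and Bscl2, AGGTCA in Plin5 and Bscl2, TTGCNNAA in Cidec and TATAAA in Cideb. These matches are letters in a window, and binding was not measured here.

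The CIDE genes moved in both directions. Cidea, the family member abundant in brown fat, was at 10.3, 9.39 and 8.59 RPKM in the 611 libraries, against 70.5, 46.4 and 68.1 RPKM in the DMSO libraries. Each 611 library lay far below every DMSO library, of which replicate 2 was the lowest. The log2 fold change was -2.57 with a standard error of 0.14 (limma adjusted p = 1.7e-06), which ranked second from the lowest among the 13829 genes tested. Cidec, known as FSP27 and the CIDE gene of large droplets, had by far the highest level of the 10 members in all 6 libraries. It was at 1925, 1770 and 1639 RPKM with 611, against 3628, 3564 and 3373 RPKM with DMSO. The log2 fold change of Cidec was -0.99 with a standard error of 0.075 (limma adjusted p = 8.3e-06), and the groups did not overlap.

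Cideb, the CIDE gene known from liver, was near the low end of the members. It was at 3.11, 2.28 and 3.00 RPKM with 611, against 1.76, 1.29 and 2.10 RPKM with DMSO, a log2 fold change of 0.49 with a standard error of 0.12 (limma adjusted p = 0.00844). The groups were separated by a small gap, between the lowest 611 library and the highest DMSO library. Some 62 to 154 reads per library lie behind these values, at the reference length of the transcript. In the GENCODE annotation 76.3% of the exon bases of Cideb overlap exons of Nop9 on the opposite strand, and the library kit keeps strand, but no source used here says whether counting used it, so reads of the 2 genes cannot be told apart. Nop9, a ribosome biogenesis gene, was itself at 5.85 ± 0.296 RPKM with 611 and 4.72 ± 0.257 RPKM with DMSO (SD, n = 3 each), a log2 fold change of 0.26 (limma adjusted p = 0.00525). After median-of-ratios scaling the log2 fold change was 0.39 for Cideb (limma adjusted p = 0.0300) and 0.13 for Nop9 (limma adjusted p = 0.109).

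**Figure D1:**
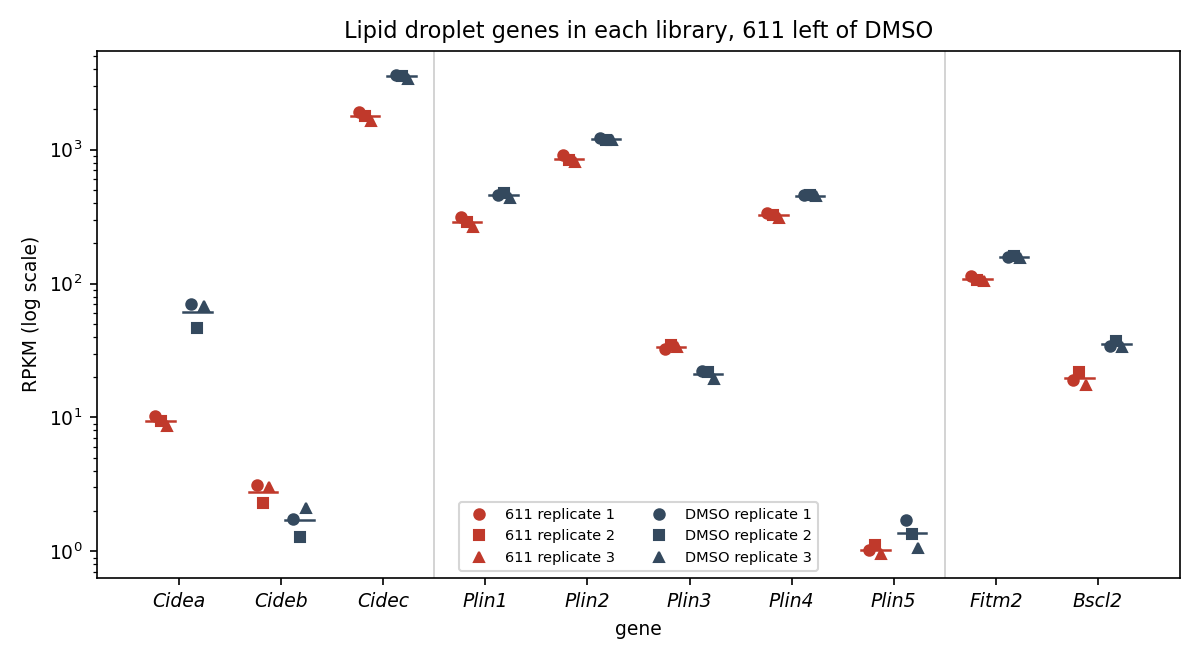
RPKM of each gene on a log axis in the 3 libraries given 611 (red, left) and the 3 given DMSO (dark, right), with a bar at each group mean; grey lines part the CIDE genes, the perilipins and the formation factors. Cidea shows the widest gap, 9.42 against 61.7 RPKM on average, while Plin3 and Cideb lie higher with 611 and the groups of Plin5 overlap.

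Among the perilipins, the 3 with the highest levels were lower with 611. Plin1, which guards the droplets of white and brown fat cells and releases the lipase activator ABHD5 upon stimulation, was at 315, 288 and 266 RPKM with 611, against 462, 471 and 439 RPKM with DMSO. The log2 fold change was -0.66 with a standard error of 0.063 (limma adjusted p = 3.2e-05), with no overlap. Plin2, the widespread perilipin of many cell types, was at 913, 836 and 805 RPKM with 611, against 1220, 1174 and 1185 RPKM with DMSO. For Plin4, a perilipin of white fat that binds nascent droplets, the values were 339, 323 and 308 RPKM with 611, against 455, 459 and 448 RPKM with DMSO. Plin2 and Plin4 had the same log2 fold change, -0.49, with standard errors of 0.058 and 0.045 (limma adjusted p = 1.1e-04 and 2.5e-05), and in both genes every 611 library was below every DMSO library.

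Plin3, known as TIP47 and expressed in most tissues, went the other way. Its values were 32.2, 34.8 and 33.4 RPKM with 611, against 22.3, 21.7 and 19.3 RPKM with DMSO. The log2 fold change was 0.64 with a standard error of 0.058 (limma adjusted p = 2.2e-05), and every 611 library was above every DMSO library. Plin5, the perilipin of oxidative tissues that tethers droplets to mitochondria, had the lowest group means of all members. It was at 1.02, 1.11 and 0.958 RPKM with 611, against 1.71, 1.34 and 1.06 RPKM with DMSO, and the DMSO replicate 3 value lay below the 611 replicate 2 value. The log2 fold change of -0.21 (95% interval -0.44 to 0.01) did not pass the test (limma adjusted p = 0.0865). With a pseudocount of 0.1 it was -0.36 (limma adjusted p = 0.0938). It was -0.11 without DMSO replicate 1 (limma adjusted p = 0.275) and -0.31 without DMSO replicate 3 (limma adjusted p = 0.0165), and it passed only in that case and after median-of-ratios scaling (-0.30, limma adjusted p = 0.0314), among the alternatives run. About 77.8 to 132 reads per library lie behind Plin5, and the part of counting error in its spread was not tested.

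Both formation factors were lower. Fitm2, whose product FIT2 acts in the endoplasmic reticulum and is needed for normal droplet budding, was at 114, 106 and 104 RPKM with 611, against 157, 161 and 156 RPKM with DMSO. Its log2 fold change was -0.54 with a standard error of 0.042 (limma adjusted p = 9.3e-06). For Bscl2, the gene of seipin, whose loss causes lipodystrophy in humans and mice, the values were 19.2, 22 and 17.5 RPKM with 611, against 34.1, 37.5 and 33.7 RPKM with DMSO. The log2 fold change of Bscl2 was -0.82 with a standard error of 0.078 (limma adjusted p = 3.1e-05), the third largest fall of the 10. In neither gene did the groups overlap, as was so for 9 of the 10 members and for 66.2% of all genes tested. Smaller shares of the exon bases of Fitm2 (5.72%) and Bscl2 (6.75%) overlap a gene on the opposite strand, and 4.05% of those of Bscl2 overlap another on the same strand. The opposite-strand partner of Fitm2, the antisense transcript 2310001K24Rik, was lower as well, at 17.9 ± 0.902 RPKM with 611 and 26.2 ± 0.912 RPKM with DMSO (SD, n = 3 each), and that of Bscl2, Gng3, was at 1.00 ± 0.0614 RPKM with 611 and 0.989 ± 0.0254 RPKM with DMSO.

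**Figure D2:**
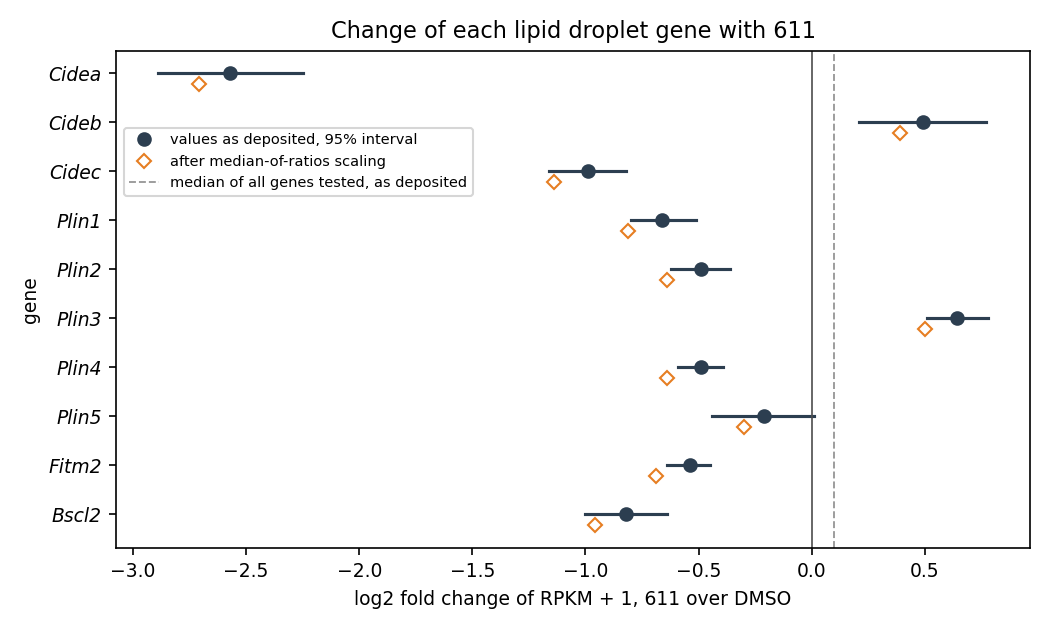
Log2 fold change of RPKM + 1 of each gene, 611 over DMSO, with its 95% limma interval (filled circles), and after median-of-ratios scaling (open diamonds); the dashed line is the median of all genes tested, 0.10. Scaling moved every gene down and kept each direction, and the interval of Plin5 alone reaches past 0.

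The transcripts recorded for 1 gene did not part company. Plin1, Plin5 and Bscl2 each had 2 RefSeq transcripts with values in the tables, and the other 7 genes had 1. Between 611 and DMSO, the log2 ratio of mean RPKM was -0.66 for both Plin1 transcripts and -0.84 for both Bscl2 transcripts, and it was -0.41 and -0.38 for those of Plin5. No source used here says how reads common to the transcripts of 1 gene were assigned. These values are therefore not taken as measures of separate isoforms.

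The order of the levels changed in the middle of the list. Cidec ranked 1 and Plin2 ranked 2 in all 6 libraries, Fitm2 stayed at rank 5 and Bscl2 at rank 7. Plin4 was above Plin1 in all 3 libraries with 611, and with DMSO it was above it in replicate 3 and below it in replicates 1 and 2. Cidea was at rank 8 in the 611 libraries, against rank 6 in the DMSO libraries. Plin3 was at rank 6 with 611, against rank 8 with DMSO, so the 2 genes exchanged places. Cideb and Plin5 held the last 2 places, with Cideb above Plin5 in all libraries except DMSO replicate 2.

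Summed over the 5 perilipins, the level was 1499 ± 94.3 RPKM with 611 and 2127 ± 34.0 RPKM with DMSO (SD, n = 3 each), 1.42-fold lower with 611. Plin2 made up 56.8% ± 0.377 of that sum with 611 and 56.1% ± 0.782 with DMSO, and Plin4 21.6% ± 0.350 with 611 and 21.4% ± 0.276 with DMSO. The share of Plin1 was 19.3% ± 0.451 with 611 and 21.5% ± 0.593 with DMSO. That of Plin3 was 2.24% ± 0.198 with 611 and 0.991% ± 0.0606 with DMSO. Only the shares of Plin1 and Plin3 were free of overlap between the groups, and the exact two-sided permutation test gave p = 0.1 for each, the smallest it can give with 3 against 3 (adjusted over the 5 shares, p = 0.25). Within the CIDE family, which summed to 1790 ± 144 RPKM with 611 and 3585 ± 130 RPKM with DMSO, Cidec held 99.3% ± 0.0249 with 611 and 98.2% ± 0.392 with DMSO. Cidea held 0.526% ± 0.00464 with 611 and 1.72% ± 0.381 with DMSO (exact permutation p = 0.1, also after adjustment over the 3 shares).

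Members also differed from each other in how far they moved. To test this, the log2 value of Plin1 in the same library was subtracted from that of each gene, which largely takes out library scaling, and the difference was compared between 611 and DMSO over all genes. Cidea was at 3.25% ± 0.0155 of the Plin1 level with 611 and at 13.6% ± 3.20 with DMSO (SD, n = 3 each), a log2 difference of -1.91 (limma adjusted p = 5.5e-82 with the spread pooled over genes, and 0.00224 without pooling). The pooled value is not a safe measure of precision, because every gene in this comparison carries the same spread of Plin1. Unpooled values are therefore given from here on beside it. For Cidea the pooled interval was the narrower one, -2.10 to -1.72 against -2.50 to -1.32 unpooled. For Cidec it was the wider one, -0.51 to -0.15 against -0.38 to -0.28 unpooled. Pooling also widened the interval for Plin2, Plin4 and Fitm2, and narrowed it for Cideb, Plin3, Plin5 and Bscl2. The Cidea to Plin1 proportion was nearly the same in the 3 libraries with 611, at 3.26%, 3.25% and 3.23%. Cidec was at 613% ± 2.58 of Plin1 with 611 and at 770% ± 14.9 with DMSO, a log2 difference of -0.33 (limma adjusted p = 3.3e-04 pooled, 0.00137 unpooled). Among all genes, 0.984% fell further than Plin1 by this test, 0.861% without pooling.

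In the other direction, 94.7% of all genes tested moved up relative to Plin1, 92.4% without pooling, so a rise on this scale sets no gene apart. Plin3 had a log2 difference of 1.30 (limma adjusted p = 1.9e-39 pooled, 0.00150 unpooled), and was at 11.6% ± 1.23 of Plin1 with 611 and 4.61% ± 0.223 with DMSO. Its rise was the largest of the members called on log2(RPKM + 1). With a pseudocount of 0.1 the difference was 1.33 for Plin3 and 1.35 for Cideb, so their order depends on the pseudocount. For Cideb the difference was 1.15 (limma adjusted p = 4.4e-19 pooled, 0.00587 unpooled) and for Plin5 0.44 (limma adjusted p = 4.7e-04 pooled, 0.0213 unpooled), though the percentages of Plin5 overlapped and its call ended with a pseudocount of 0.1 (0.30, limma adjusted p = 0.119). Plin2 and Plin4, each with a log2 difference of 0.17, did not pass (limma adjusted p = 0.0560 and 0.0539, with intervals from -0.00 to 0.34), but did so without pooling (limma adjusted p = 0.0155 and 0.0126), with a replicate block (limma adjusted p = 0.0121 and 0.0101) and without 611 replicate 1 (limma adjusted p = 0.0244 and 0.0105). Fitm2 (0.11, 95% interval -0.06 to 0.29) did not pass the test (limma adjusted p = 0.198 pooled, 0.0543 unpooled). Neither did Bscl2 (-0.16, 95% interval -0.35 to 0.03; limma adjusted p = 0.106 pooled, 0.179 unpooled). With a replicate block, in the pooled fit, Bscl2 passed (limma adjusted p = 0.0296), and leaving out 611 replicate 1 brought its difference to -0.09 (limma adjusted p = 0.294).

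**Figure D3:**
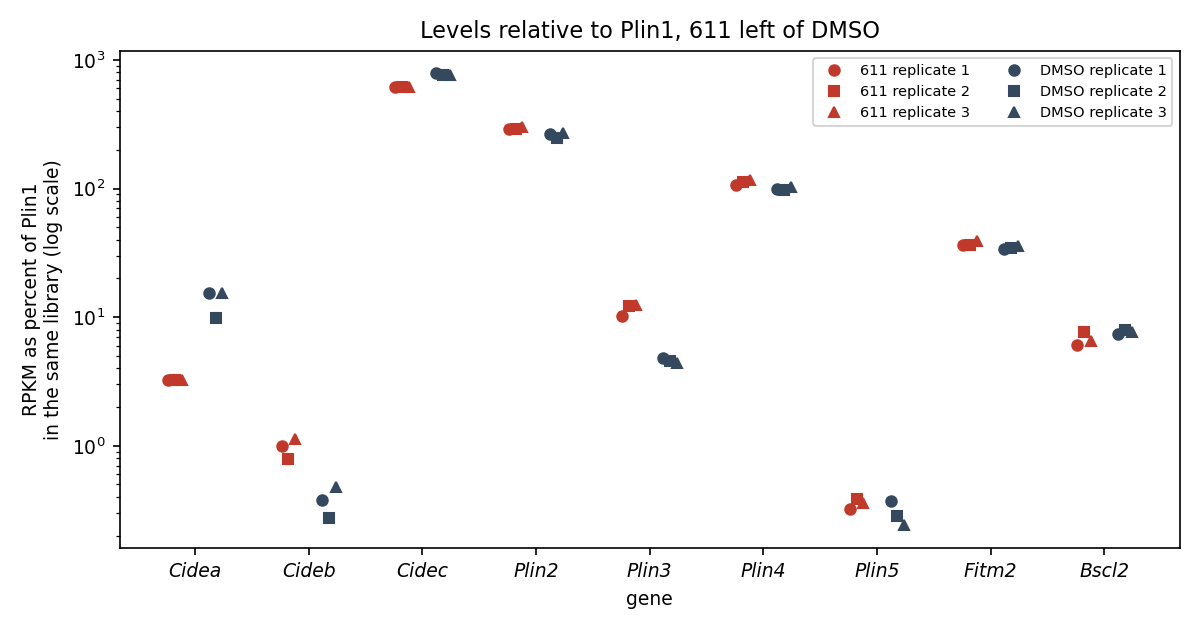
RPKM of each gene as a percentage of Plin1 in the same library, on a log axis, for the 3 libraries given 611 (red, left) and the 3 given DMSO (dark, right). The percentage of Cidea is 3.25 against 13.6 on average and that of Plin3 11.6 against 4.61, while those of Bscl2 and Plin5 overlap between the groups.

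The same comparison with Cidec in place of Plin1 set the CIDE genes against each other. Cidea was at 0.529% ± 0.00462 of the Cidec level with 611 and 1.76% ± 0.394 with DMSO (SD, n = 3 each), a log2 difference of -1.58 (limma adjusted p = 2.5e-59 pooled, 0.00169 unpooled), and 0.282% of all genes were lower on this scale, 0.224% unpooled. Cideb moved up relative to Cidec by 1.48 (limma adjusted p = 1.4e-31 pooled, 0.00177 unpooled), as did 98.6% of all genes tested, 97.8% unpooled. All 5 perilipins and Fitm2 were likewise called higher relative to Cidec, with log2 differences from 0.33 for Plin1 to 1.63 for Plin3 (limma adjusted p from 4.4e-04 to 0.00212 unpooled). Bscl2, at 0.17 (95% interval -0.02 to 0.36), did not pass the test (limma adjusted p = 0.0739 pooled, 0.168 unpooled). In the pooled fit it passed with a replicate block (limma adjusted p = 0.00503), without 611 replicate 1 (0.24, limma adjusted p = 0.0106) and without 611 replicate 3 (0.19, limma adjusted p = 0.0486). Without 611 replicate 2 the difference was 0.09 (limma adjusted p = 0.479) and without DMSO replicate 1 it was 0.13 (limma adjusted p = 0.278).

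Of 5 transcription factors known to act on droplet genes in fat cells, 4 were lower with 611 and Ppara did not pass the test, where 17.7% of all genes tested were lower. Pparg, the receptor of rosiglitazone, was at 45.2 ± 1.19 RPKM with 611 and 62.8 ± 1.09 RPKM with DMSO (SD, n = 3 each), a log2 fold change of -0.47 (limma adjusted p = 8.7e-06). Its partner Rxra was 1.31-fold lower, at 31.1 ± 1.30 RPKM with 611 and 40.8 ± 1.38 RPKM with DMSO. Cebpa, at 58.2 ± 4.93 RPKM with 611 and 68.2 ± 2.73 RPKM with DMSO, was 1.17-fold lower (limma adjusted p = 0.00995). Ppard, at 13.7 ± 0.700 RPKM with 611 and 15.2 ± 0.689 RPKM with DMSO, was 1.11-fold lower and passed narrowly (limma adjusted p = 0.0449). Ppara was at 2.73 ± 0.309 RPKM with 611 and 2.89 ± 0.366 RPKM with DMSO (limma adjusted p = 0.595). Relative to Cidec, Pparg was higher by 0.52 and Cebpa by 0.76 on the log2 scale (limma adjusted p = 0.00178 and 4.3e-04 unpooled). Kdm1a, the gene of LSD1, was at 11.3 ± 0.331 RPKM with 611 and 9.09 ± 0.331 RPKM with DMSO, and as 611 acts on the protein, this level does not check the labels.

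Of a list of 50 other genes of droplet formation, droplet size and lipid supply, 48 could be tested, of which 27 were lower and 12 higher with 611, with a median log2 fold change of -0.20. Over all genes tested 17.7% were lower and 41.6% higher, with a median of 0.10. After median-of-ratios scaling 32 of the 48 were lower and 7 higher, with a median of -0.35, against 28.6% lower and 28.5% higher over all genes. The largest fall was that of Clstn3, at 12.3 ± 0.484 RPKM with 611 and 31.1 ± 0.850 RPKM with DMSO (SD, n = 3 each), 2.54-fold lower. From the locus of Clstn3 fat cells also make a short protein that binds CIDE proteins, and which product was read is not known from these tables. G0s2, an inhibitor of the lipase ATGL, was 2.08-fold lower at 198 ± 5.94 RPKM with 611 and 413 ± 14.3 RPKM with DMSO. Dgat2, which completes triglyceride synthesis at droplets, was 2.04-fold lower, and Lpin1, which makes its diglyceride substrate, 2.07-fold lower. Pnpla3, a lipase homologue found on droplets, and Cav1, the caveolin that also reaches droplets, were 1.82-fold and 1.72-fold lower. The limma adjusted p-values of these 6 ran from 2.8e-07 for Clstn3 to 1.7e-05 for Cav1.

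On the other side, Lpcat1, which remodels phosphatidylcholine and can sit on droplets, was 2.10-fold higher, at 3.86 ± 0.266 RPKM with 611 and 1.84 ± 0.0587 RPKM with DMSO. Tmem43, a membrane protein of the nuclear envelope, was 1.74-fold higher, and Spg20, whose product spartin is found on droplets, 1.69-fold. Vamp4, a SNARE protein, was 1.60-fold higher, Soat1, which makes cholesterol esters for storage, 1.56-fold, and Pcyt1a, the enzyme that sets phosphatidylcholine synthesis on growing droplets, 1.28-fold. Limma adjusted p-values of these 6 ran from 4.0e-06 for Tmem43 to 4.0e-04 for Pcyt1a, and all 6 also passed after scaling. Tmem159, whose product joins seipin in droplet formation, was at 15.1 ± 0.329 RPKM with 611 and 15.2 ± 0.584 RPKM with DMSO, with a 95% interval of the log2 fold change from -0.10 to 0.10, and after scaling it was lower by 0.14 (limma adjusted p = 0.0326). Fitm1, the relative of Fitm2 known from muscle, was at 0.107, 0.0532 and 0.0268 RPKM with 611 and listed at 0 in all 3 DMSO libraries, too low to test.

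**Figure D4:**
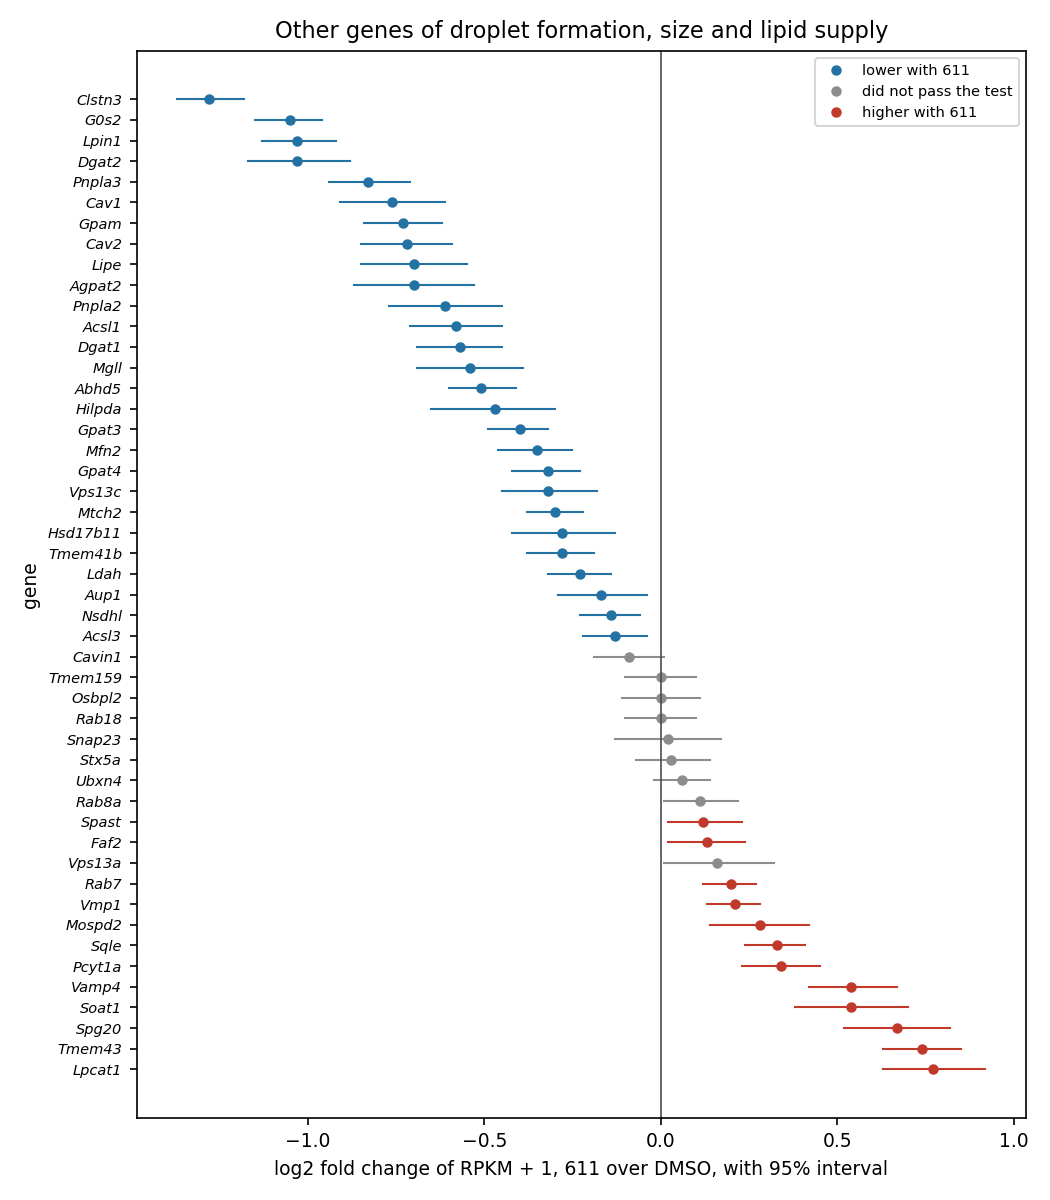
Log2 fold change of RPKM + 1, 611 over DMSO, with its 95% limma interval, of the 48 tested genes of droplet formation, size and lipid supply, from the largest fall (top) to the largest rise (bottom). Blue genes were lower, red genes higher and grey genes did not pass the test; Clstn3 stands at -1.28 and Lpcat1 at 0.77.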

How the data were processed

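Each library has its own table of RPKM, deposited by the authors, over 28430 RefSeq transcripts. The submitters' processing notes name TopHat2 2.0.12, TopHat, SAMtools and mm9. No source used here names the program that computed RPKM, its annotation or its use of strand. Groups and replicate numbers came from the sample titles. The 3 libraries of each group are described as biological replicates in the series' design, so p-values measure the spread between these cultures.

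Accessions were joined to gene symbols through RefSeq's GRCm38.p6 table, which matched 27789 of 28430 accessions, and the transcript with the highest mean RPKM stood for its gene. Genes with at least 0.1 RPKM in at least 3 libraries (13829) were fitted with limma 3.58.1 (R 4.3.3, trend on the mean level, two-sided) on log2(RPKM + 1), with group as the only term, and p-values were adjusted by Benjamini-Hochberg over all of them at a threshold of 0.05. Log2 fold changes on this scale understate the change of low genes; folds are ratios of mean RPKM. Fits relative to Plin1 or Cidec used log2 differences within a library and 13828 genes. The unpooled values there came from an ordinary two-sided t-test of each gene alone, unpaired and outside limma, adjusted by Benjamini-Hochberg over the same genes. Leaving the spread unpooled there was chosen after seeing the data. The fits were tested on simulated data. Library totals came from low RPKM values that are whole multiples of 1 read; whether these are reads or pairs is not known.

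The members, the lists and the tests were chosen with earlier results of these data known. Named genes were the 10 members, 6 regulators, up to 6 called genes per direction of the droplet list with at least 1 RPKM, and the 5 genes nearest in pattern to Cidea and Plin1. Tmem159 was matched to the later symbol Ldaf1 by hand and Spg20 to Spart by its synonym. Deviations from the group means correlated across genes between the 611 and DMSO libraries that share a number, at 0.30, 0.30 and 0.18. The main fits, the t-tests and the permutation tests did not pair the cultures. Only the replicate block, run as an alternative, took the numbers as pairs. Alternatives were the pseudocount, the filter, the trend, the replicate block, median-of-ratios scaling, summed transcripts and leaving out each library.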

Additional observations from a re-analysis of the deposited data

How the results depend on the processing

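The 7 lower and 2 higher members held their direction and call under every alternative run, with 7 to 8 lower and 2 higher when each library was left out in turn, and the replicate block changed no call among them. The eighth was Plin5, described with its values. For the 50 related genes, median-of-ratios scaling gave 7 higher genes in place of 12, and leaving out a library gave 10 to 11 higher and 25 to 27 lower, while the replicate block gave 13 higher and 27 lower. Relative to Plin1, 3 members were called higher and 2 lower; with a filter of at least 1 RPKM, a replicate block, no pooling of the spread, or without 611 replicate 1 there were 5 higher, and leaving out a library gave 3 to 5 higher and 2 lower. The block also called Bscl2 lower there, and it changed no other member's call on that scale than those of Plin2, Plin4 and Bscl2. Relative to Cidec, 7 to 8 were higher and 1 lower when a library was left out, the eighth being Bscl2, which the block also called. No member's direction turned in any of these. Among the related genes, scaling turned Faf2 (0.13, after scaling -0.01) and Spast (0.12, after scaling -0.01), both called higher before it, and 4 that had not passed the test (Rab8a, Ubxn4, Stx5a and Snap23). Rab18 went from 0.00 to -0.15 and was called lower after scaling (limma adjusted p = 0.0209). All of these genes were chosen after their values were seen. Depth limits Cideb and Plin5, with at most 154 and 132 reads per library.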

Other observations

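Over the 6 libraries, the genes whose centred log2 values lay nearest to those of Cidea, with a root mean square difference of 0.210 to 0.402, were Pck1, Cox8b, Sptlc3, Ces1d and Ifi27l2a, among genes whose higher group mean reached 5 RPKM. Pck1, the phosphoenolpyruvate carboxykinase, was nearest, at 3.28 ± 0.458 RPKM with 611 and 19.6 ± 1.78 RPKM with DMSO (SD, n = 3 each). The 5 genes nearest to Plin1 were much closer, with differences of 0.0268 to 0.0329: Cpt2 of mitochondrial fatty acid import, the lipase gene Lipe, Trarg1 of GLUT4 traffic, Agpat2 of glycerolipid synthesis and the kinase gene Mknk2. Cpt2 was at 85.4 ± 5.06 RPKM with 611 and 133 ± 3.21 RPKM with DMSO. These distances follow mostly from the difference between the groups and describe these libraries only.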
